A study of Homo sapiens with 30 samples.

Results

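The genes described here are the amino acid stress response governed by the transcription factor ATF4, as a list of 39 genes with 8 transcription factors and partners, 8 stress effectors and feedback genes, 11 enzymes of amino acid and one-carbon synthesis and 12 genes of tRNA charging and export. Each was read on the brightest of its probe sets that carry a single symbol, which gave values for 38 of the 39 members among 19775 genes, and all 38 passed the filter on low signal that left 13137 genes for testing. MARS1, the cytosolic methionyl-tRNA synthetase, had no probe set of its own symbol alone and has no value here.

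The arrays were made from KMS11, a human multiple myeloma cell line in which a chromosomal translocation drives NSD2, an enzyme that methylates histone H3 and is also known as MMSET. The 30 HG-U133 Plus 2.0 arrays comprise 10 lines, with 3 separate cultures of each. The parental line is PAR, and the knockout of NSD2 made from it is TKO. The other 8 lines are knockout cells that carry a transgene: wild-type NSD2 (WT), the catalytic dead mutant (CDM), NSD2 with the H762Y substitution, the MMSET I isoform that lacks the catalytic SET domain (MMSET1), the fragments 526-1240 and 526-1365 named by their residues, WT with MMSET I (WT+MMSET1) and CDM with MMSET I (CDM+MMSET1). Each transgene or combination of transgenes was read in 1 line, so it cannot be told apart from the line that carries it. WT, CDM and MMSET I were read both alone and in combination. A knockout line with an empty vector was not analysed here. All values are log2, and 1 unit of difference means 2-fold. SD is over n = 3 arrays of a line, and SE is that of a difference, as moderated by limma.

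When amino acids run short or unfolded proteins accumulate, kinases phosphorylate the translation initiation factor eIF2, which lowers protein synthesis as a whole while the ATF4 mRNA is translated more. ATF4 then pairs with C/EBP and other bZIP proteins on a composite DNA element and switches on genes for amino acid synthesis, transport and tRNA charging. DDIT3 (CHOP), TRIB3 and CHAC1 mark its sustained form. Plasma cells and many myeloma cells secrete large amounts of immunoglobulin. ATF4 protein was not measured on these arrays, and its mRNA is only part of its control.

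The composite element was looked for in the promoters of the members because its core is the DNA sequence that ATF4 and C/EBP proteins are known to share. RefSeq promoter windows of the GRCh38.p14 build, from 250 bases before to 50 bases after a start site, held 31 of the 39 members. The core TGATGNAA, on either strand, lay in a window of 12 of these 31 members (38.7%), against 4.46% of 27305 genes in the same table. The narrower core TGATGCAA, a subset of the first, lay in 9 of the 31 members and in 1.08% of all genes. The full cAMP response element TGACGTCA lay in 0 of the 31 members and in 2.25% of all genes, and the endoplasmic reticulum stress response element in 0 members and 0.0916% of all genes. The core was found in 7 of 11 genes of tRNA charging and export (AARS1, CARS1, GARS1, IARS1, MARS1, NARS1 and TARS1), 3 of 7 transcription factors (ATF3, CEBPG and JDP2), 1 of 6 effectors (CHAC1) and 1 of 7 synthesis enzymes (ASNS). Members had more windows per gene than the table as a whole. Counted by window, the first core lay in 12 of 50 windows of members and in 3.62% of all 35116 windows. The members were listed as genes of the ATF4 response, so these shares are no separate evidence for that role. A match is a string of letters in this window and was not tested as a binding site. The following 6 stretches show the core in capitals, on the strand of the gene, for members of each role described below; the core reads TTGCATCA where it lies on the opposite strand.
JDP2, chr14:75427995-75428021, plus strand: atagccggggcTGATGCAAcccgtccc
ATF3, chr1:212565205-212565234, plus strand: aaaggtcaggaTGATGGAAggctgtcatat
CEBPG, chr19:33374060-33374089, plus strand: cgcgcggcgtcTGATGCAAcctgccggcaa
CHAC1, chr15:40953251-40953280, plus strand: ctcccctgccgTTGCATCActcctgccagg
ASNS, chr7:97872458-97872487, minus strand: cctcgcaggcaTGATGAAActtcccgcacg
AARS1, chr16:70289675-70289704, minus strand: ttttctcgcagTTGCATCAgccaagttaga
The core began 16 bases before a start site in JDP2, 42 in CEBPG, 68 in ASNS, 187 in AARS1, 191 in ATF3 and 209 in CHAC1. A gene can have several start sites in the table, and these are distances to the start site of the window shown.

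Array medians lay between 4.986 and 5.039. A line whose mean for a gene is under 5.013, which is the median over all probe sets and arrays, is called dim for that gene. NSD2 gave signal in TKO too (10.07, 10.18 and 10.29, against 10.58, 10.59 and 10.66 in PAR; adjusted p = 0.00157), and since the sources used here do not give the deleted part of the transcript, this probe set does not test the knockout label. Of 10 plasma cell markers, TNFRSF17, IRF4, PRDM1, XBP1, MZB1, POU2AF1 and JCHAIN read at least 10.08 on every array. The surface markers SDC1 (CD138, 5.21 to 7.64, median 5.98) and CD38 (4.73 to 6.58, median 5.71) read lower and varied between arrays. SLAMF7 was dim (3.38 to 4.11). Lists of fibroblast and monocyte markers averaged between 4.40 and 5.06 on each array. The T cell list averaged 4.51 in WT and 4.89 in CDM, with 3 of its 6 genes passing the filter on low values, and the erythroid list 5.57 in WT and 5.89 in CDM. The epithelial list moved with the lines, from a mean of 5.19 in TKO and 5.27 in CDM to 5.59 in WT and 5.79 in PAR, led by EPCAM (6.49 to 9.95), and the part of these markers in the results was not tested. H762Y replicate 1 stood apart from its line: its correlations across genes with replicates 2 and 3 were 0.958 and 0.961, where those of replicates 2 and 3 with each other reached 0.998, and WT+MMSET1 replicate 1 was the array nearest to it (0.981). A swapped or mislabelled culture cannot be told apart from a culture of H762Y that differed, which holds for every H762Y value given here. Counts of members that differ without this array are therefore given both ways for WT, PAR, the fragments, CDM, MMSET1 and H762Y against TKO and for H762Y against WT and WT against PAR. In bulk samples, fewer cells of a type and less RNA per cell cannot be told apart.

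**Figure D1:**
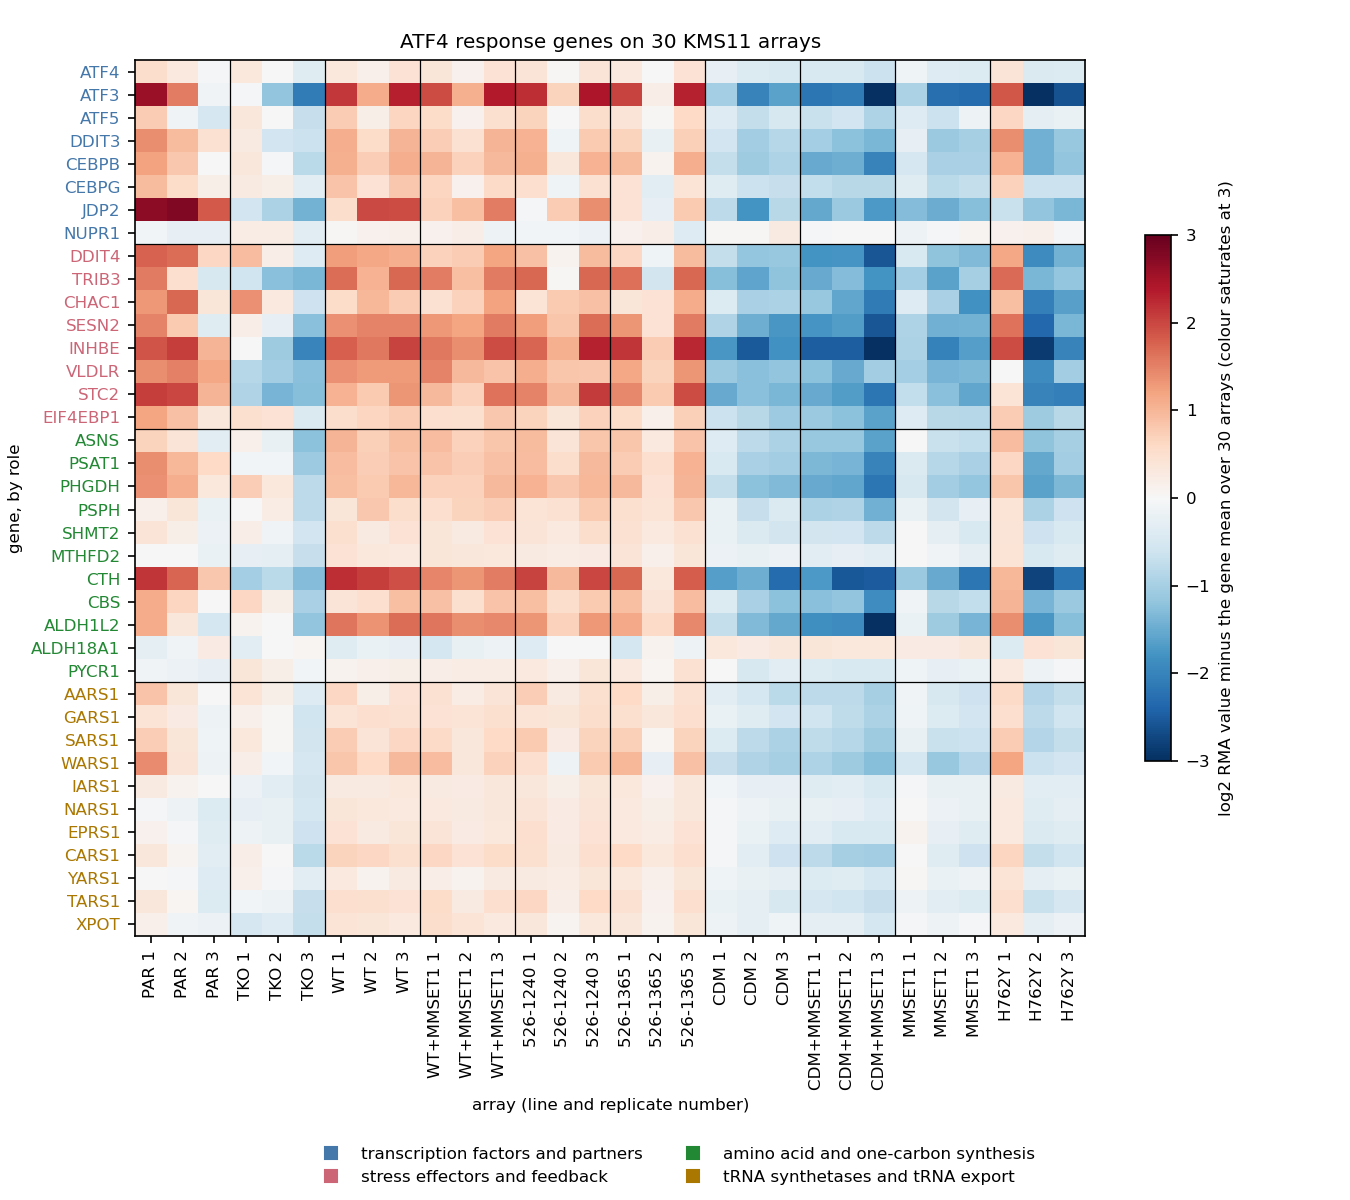
Values of the 38 members (vertical axis, grouped by role) on all 30 arrays (horizontal axis), as log2 value minus the mean of the gene over the arrays, on a colour scale that saturates at 3. PAR 1, the WT and fragment lines and H762Y 1 are mostly red, and the CDM and MMSET1 lines and H762Y 2 and 3 mostly blue; ALDH18A1 runs the other way and NUPR1 is nearly flat.

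WT against CDM compares knockout cells that received wild-type NSD2 with knockout cells that received its catalytic dead mutant, and so asks what differs with the activity of the enzyme. Nearly the whole list was higher in WT: 36 of 38 members rose, 1 fell and 1 did not pass an adjusted p of 0.05, while 23.4% of all tested genes passed in either direction and 12.4% upward. The median difference of the members was 1.39, against -0.02 over all tested genes, and 23 members differed at least 2-fold, which 5.26% of all genes did. The 3 WT arrays did not overlap the 3 CDM arrays in 37 members, against 43.4% of all genes. The 8 stress effectors moved most (all 8 rose, median 2.46), then 7 of 8 transcription factors (median 1.49), 10 of 11 synthesis enzymes (median 1.47) and all 11 measured genes of tRNA charging and export (median 0.80). The NSD2 probe set itself differed by 0.02 between WT and CDM (SE 0.0956, adjusted p = 0.885). It did not pass against TKO in WT (0.22, adjusted p = 0.0744) or in CDM (0.19, adjusted p = 0.186). Since it hardly registered either transgene, it cannot show whether the 2 lines expressed them equally.

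ATF4, on chromosome 22 (chr22:39520559-39522686), read 13.41, 13.25 and 13.53 in WT and 12.83, 12.67 and 12.63 in CDM. All WT arrays lay above all CDM arrays, although the shift was small beside the median of the list. The log2 difference was 0.68 (SE 0.191, adjusted p = 0.0136), and the call was lost without WT replicate 3 (0.62, adjusted p = 0.0564) or CDM replicate 3 (0.64, adjusted p = 0.0541). Other lines with WT or a fragment read near WT: WT+MMSET1 13.45, 13.21 and 13.51, 526-1240 13.48, 13.12 and 13.48, and 526-1365 13.38, 13.08 and 13.51. CDM+MMSET1 read 12.63, 12.62 and 12.43, and MMSET1 12.95, 12.70 and 12.67, so that the ATF4 values of these 9 arrays with CDM or MMSET I without WT all lay below those of the 12 arrays with WT or a fragment. PAR, TKO and H762Y each had an array within the range of the 12 and an array below it. ATF4 read 13.60, 13.38 and 13.02 in PAR, 13.39, 13.10 and 12.73 in TKO, and 13.47, 12.64 and 12.69 in H762Y.

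Of the other transcription factors, ATF3, a bZIP repressor and activator induced by stress, read 10.96, 9.96 and 11.18 in WT and 7.81, 6.83 and 7.24 in CDM. The lowest WT array was well above the highest CDM array (difference 3.41, SE 0.916, adjusted p = 0.0111). JDP2, a bZIP partner of the JUN family, read 7.11, 8.56 and 8.54 in WT and 5.79, 4.77 and 5.75 in CDM (difference 2.63, adjusted p = 4.49e-05). WT replicate 1 was the lowest of its line in JDP2 and still above CDM. CEBPB, a C/EBP partner of ATF4, read 12.83, 12.52 and 12.85 in WT against 11.06, 10.70 and 10.83 in CDM (difference 1.86, adjusted p = 0.00439). DDIT3, which encodes the stress factor CHOP, read 11.03, 10.49 and 10.97 against 9.37, 8.90 and 9.07 (difference 1.72, adjusted p = 0.0139), a call that was lost without WT replicate 1 (1.61, adjusted p = 0.0575). CEBPG, the C/EBP partner that forms heterodimers with ATF4, differed by 1.27 (10.78, 10.36 and 10.74 against 9.57, 9.28 and 9.24; adjusted p = 0.00332). ATF5, a close relative of ATF4, differed by 1.06 (adjusted p = 0.0117) and by 0.58 in the mean of its 4 probe sets (adjusted p = 0.0239). NUPR1, a small stress-induced chromatin protein, was the exception, at 5.57 ± 0.058 in WT and 5.57 ± 0.142 in CDM (adjusted p = 0.986), and it stayed between 5.07 and 5.74 on all 30 arrays, close to the median signal.

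The effectors had the largest median difference. INHBE, the inhibin beta E chain, read 10.83, 10.61 and 11.06 in WT and 7.29, 6.53 and 7.22 in CDM, a difference of 3.82 (SE 0.769, adjusted p = 0.00122). TRIB3, a pseudokinase that feeds back on ATF4 and CHOP, read 12.35, 11.74 and 12.40 against 9.40, 9.10 and 9.47 (difference 2.84, adjusted p = 0.00353). SESN2, a leucine sensor that restrains mTORC1, read 10.42, 10.54 and 10.52 against 8.13, 7.59 and 7.29 (difference 2.83, adjusted p = 0.0028). In each of these every WT array lay more than 2-fold above every CDM array. VLDLR, the very low density lipoprotein receptor, read 6.25, 6.15 and 6.16 in WT and was dim in CDM at 3.77, 3.63 and 3.71 (difference 2.49, adjusted p = 6.71e-07). STC2, the secreted glycoprotein stanniocalcin-2, read 7.34, 7.07 and 7.62 and was dim in CDM at 4.78, 5.04 and 4.91 (difference 2.43, adjusted p = 0.000655). RMA values carry no call of presence, so for a gene that is dim in a line the difference is given for the array signal alone. DDIT4 (REDD1), another inhibitor of mTORC1, differed by 2.17 and EIF4EBP1, the cap-dependent translation inhibitor 4E-BP1, by 1.5. CHAC1, which degrades glutathione, differed by 1.55 (adjusted p = 0.0459), a call that was lost when any of the 6 arrays was left out (1.43 to 1.73, adjusted p = 0.0639 to 0.124).

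Among the synthesis enzymes, CTH, which makes cysteine from cystathionine, read 8.94, 8.80 and 8.65 in WT and was dim in CDM at 5.07, 5.25 and 4.42. The WT arrays lay over 3 log2 units above every CDM array, the largest difference of the list in this comparison (3.89, SE 0.607, adjusted p = 7.63e-05). ALDH1L2, the mitochondrial formyltetrahydrofolate dehydrogenase, read 9.63, 9.37 and 9.69 against 7.31, 6.68 and 6.48 (difference 2.74, adjusted p = 0.00241). The serine pathway rose through each of its enzymes. PHGDH, the first step, read 10.47, 10.34 and 10.54 in WT and 8.85, 8.33 and 8.23 in CDM (difference 1.98, adjusted p = 0.00253). PSAT1, the next step, differed by 1.67 (12.02, 11.82 and 11.93 against 10.61, 10.11 and 10.04; adjusted p = 0.00225), and PSPH, the last, by 1.01. ASNS, which makes asparagine, read 13.18, 12.87 and 13.05 against 11.76, 11.35 and 11.21 (difference 1.59, adjusted p = 0.0066). CBS, which makes cystathionine, differed by 1.47, and the folate enzymes SHMT2 and MTHFD2 by 0.79 and 0.54. The proline enzymes parted: PYCR1, the last step, rose by 0.42, while ALDH18A1, the first, fell by 0.57 (9.62, 9.77 and 9.73 in WT against 10.29, 10.22 and 10.32 in CDM; adjusted p = 0.0283). The ALDH18A1 call was lost without WT replicate 1 (-0.52), WT replicate 3 (-0.58) or any CDM array (-0.59 to -0.55), with adjusted p from 0.0535 to 0.0988.

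The tRNA genes rose together by smaller steps, from 0.43 for YARS1 to 1.66 for WARS1, the tyrosyl- and tryptophanyl-tRNA synthetases. WARS1 read 10.93, 10.68 and 11.07 in WT and 9.41, 9.19 and 9.10 in CDM (adjusted p = 0.00568). SARS1, the seryl-tRNA synthetase, read 12.84, 12.48 and 12.71 against 11.67, 11.30 and 11.14 (difference 1.31, adjusted p = 0.00442). AARS1, for alanine, read 11.20, 10.76 and 10.995 against 10.24, 10.03 and 9.76 (difference 0.97, adjusted p = 0.0149). Values of all 11 separated the lines without overlap. CARS1, for cysteine, differed by 0.94 (12.51, 12.46 and 12.33 against 11.78, 11.50 and 11.22), and XPOT, the exporter that carries tRNA out of the nucleus, by 0.54 (13.20, 13.16 and 13.09 against 12.65, 12.52 and 12.67; adjusted p = 0.00422). GARS1, TARS1, EPRS1, NARS1 and IARS1, for glycine, threonine, glutamate with proline, asparagine and isoleucine, differed by 0.85, 0.80, 0.57, 0.48 and 0.48. In all, 23 of the 37 calls held whichever array was left out; those of AARS1 (without WT replicate 1 or CDM replicate 3), CARS1 and EPRS1 (the same arrays), GARS1 and TARS1 (CDM replicate 3), ATF5 and MTHFD2 (WT replicate 1), YARS1, CBS and PYCR1 (at least 3 of the 6 arrays each) ended under a single omission, beside those named above.

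**Figure D2:**
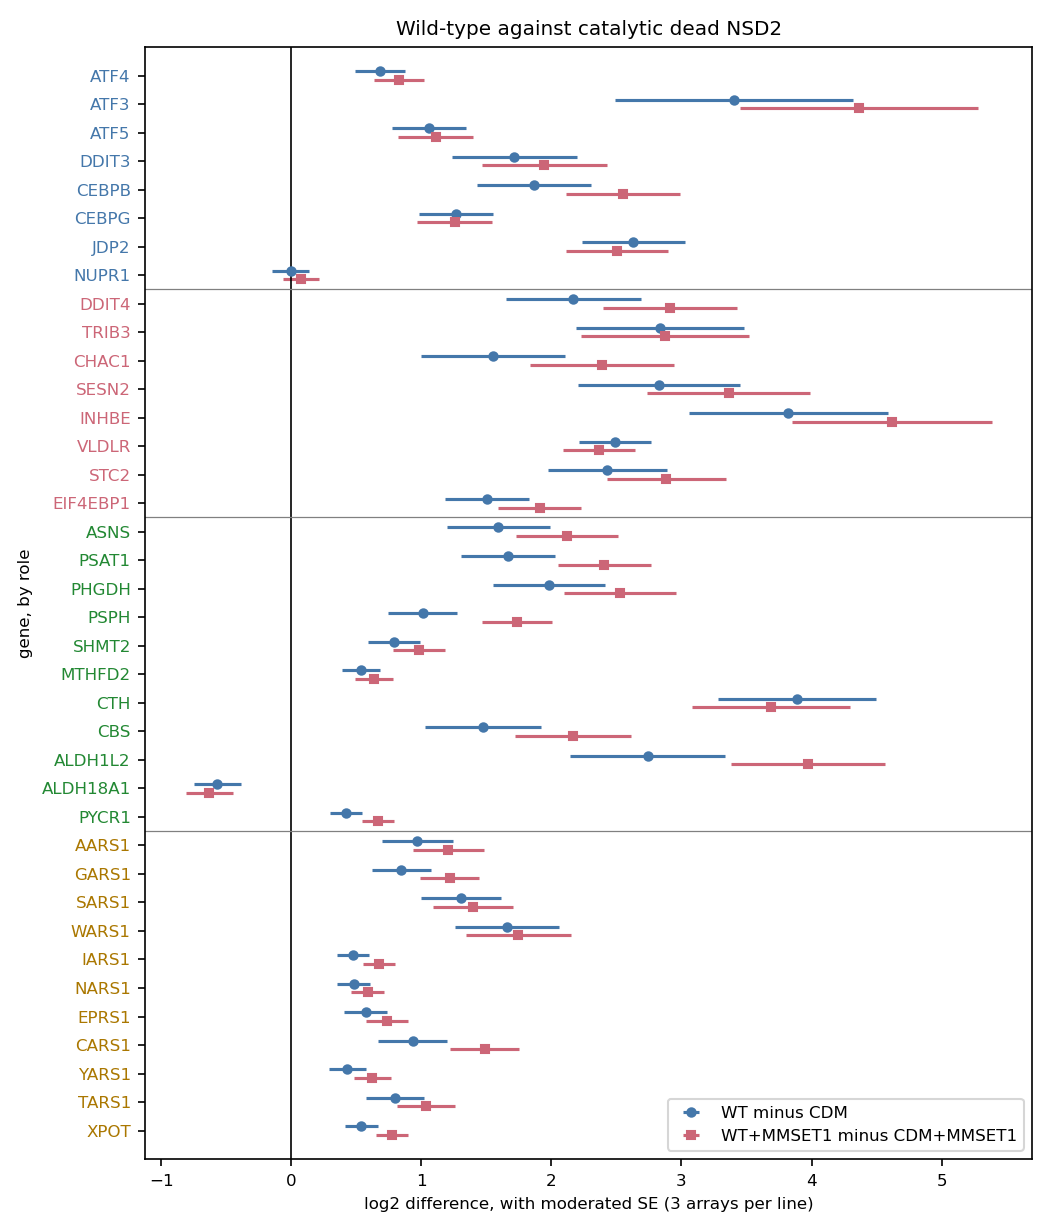
Log2 differences of each member (horizontal axis, with bars of 1 moderated SE, 3 arrays per line) between WT and CDM (blue circles) and between WT+MMSET1 and CDM+MMSET1 (red squares). All members except NUPR1 and ALDH18A1 lie to the right of 0 in both comparisons, and CTH (3.89) and INHBE (4.62) are the farthest to the right.

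The same pair of proteins was also compared beside MMSET I, as WT+MMSET1 against CDM+MMSET1. Its arrays are other arrays, but same-numbered arrays of WT+MMSET1 and WT deviated together (correlations of residuals 0.46, 0.69 and 0.52), so that the WT side of this comparison is not independent of the first. Again 36 members rose and 1, ALDH18A1, fell (32.1% of all genes passed), with a median of 1.74 and 27 members at least 2-fold apart (6.4% of all genes). INHBE differed most (4.62, SE 0.769, adjusted p = 0.000129), with 10.61, 10.44 and 10.999 in WT+MMSET1 and 6.57, 6.57 and 5.05 in CDM+MMSET1. ATF3 differed by 4.36 and ALDH1L2 by 3.97; CDM+MMSET1 replicate 3 was the lowest array for both (5.43 and 4.27). The call of ALDH18A1 was lost without WT+MMSET1 replicate 1 (-0.52, adjusted p = 0.0725), and the other 36 held whichever array was left out. Whether MMSET I changed the size of the WT to CDM difference was tested as an interaction: 0 members and 0% of all genes passed in limma, and 0 members had an unadjusted p under 0.05, with member differences from -0.20 to 1.23. MMSET I added to WT (WT+MMSET1 against WT) gave 0 calls among members (0 with an unadjusted p under 0.05) and 0.0152% over all genes, with differences from -0.63 to 0.14.

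Set out by transgene, the 12 arrays of WT, WT+MMSET1, 526-1240 and 526-1365 were compared with the 9 arrays of CDM, CDM+MMSET1 and MMSET1. This split follows the labels but was chosen after the values were seen, so it is given as a count. PAR, TKO and H762Y were left out of it. TKO overlapped the 12 arrays in some members and not in others. CEBPB read 12.11 in TKO replicate 1, above the lowest of the 12 arrays (11.88). CTH read at most 5.93 in TKO, below the lowest of the 12 (7.04). Nor are the 12 arrays all independent. Residuals of same-numbered arrays were correlated between 526-1365 and WT (0.38 to 0.60) and between WT+MMSET1 and WT (0.46 to 0.69). Of 38 members, 36 were higher on every one of the 12 arrays than on any of the 9, ALDH18A1 was lower on every one, and NUPR1 overlapped; 15.4% of all tested genes did not overlap (8.97% higher and 6.45% lower).

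**Figure D3:**
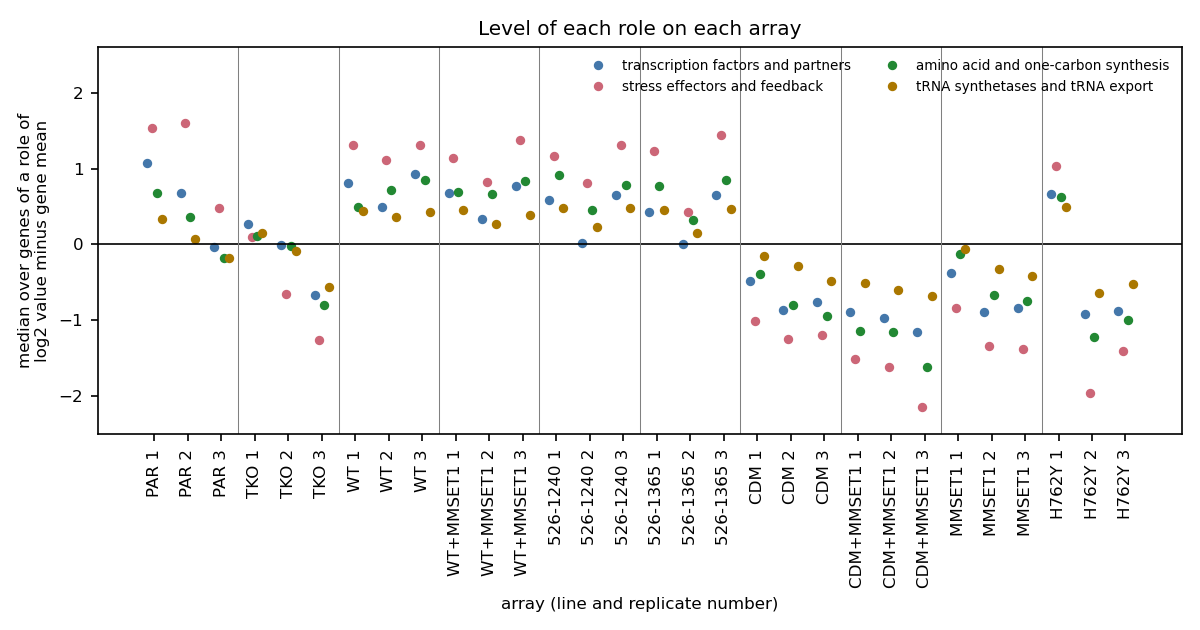
Median over the genes of each role of the log2 value minus the mean of the gene (vertical axis) on each of 30 arrays (horizontal axis), with 1 colour per role. The stress effectors swing most, from 1.60 in PAR 2 to -2.15 in CDM+MMSET1 3, and the tRNA genes least, from 0.50 in H762Y 1 to -0.68 in CDM+MMSET1 3.

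By the median member, TKO replicates 1 and 2 lay between these groups (0.16 and -0.06 from the mean of the gene over all arrays). Replicate 3 (-0.68) lay within the range of the CDM, CDM+MMSET1 and MMSET1 arrays (-1.18 to -0.22). In CDM against TKO, 3 of 38 members passed (7.89%, against 17.2% of all genes). Against TKO, WT raised 23 members and lowered 0 (40.8% of all genes passed, 21.5% upward), with a median difference of 0.77 against 0.00 over all genes; without H762Y replicate 1 in the fit the counts were 30 and 0 (45.7%). The WT arrays did not overlap those of TKO in 29 members (52.2% of all genes), and 13 members passed with at least 2-fold (7.81% of all genes). By role, 4 of 8 transcription factors, 5 of 8 effectors, 7 of 11 synthesis enzymes and 7 of 11 tRNA genes rose. CTH read 5.71, 5.93 and 5.42 in TKO, far below the WT values above (difference 3.11, SE 0.607, adjusted p = 0.000314), and ATF3 read 8.81, 7.65 and 6.73 (difference 2.97, adjusted p = 0.0124). INHBE, at 9.02, 7.97 and 7.05 in TKO, differed by 2.82 (adjusted p = 0.00544). JDP2, at 6.01, 5.62 and 5.16, differed by 2.47 (adjusted p = 3.49e-05), and VLDLR, dim in TKO at 4.02, 3.84 and 3.62, by 2.36. ATF4 itself spread over 13.39, 13.10 and 12.73 in TKO and overlapped WT (difference 0.32, adjusted p = 0.191). The spread within TKO bears on this comparison: without TKO replicate 3, 11 members passed, and ATF3 (2.47, adjusted p = 0.0667), SESN2 (1.48, adjusted p = 0.102), ASNS (0.92, adjusted p = 0.0879), PSAT1 (0.92, adjusted p = 0.0656) and ALDH1L2 (1.5, adjusted p = 0.0808) were among those that no longer did. In XPOT the TKO mean (12.25) was the lowest of the 10 lines, the next being CDM+MMSET1 (12.43). XPOT read 12.28, 12.40 and 12.07 in TKO, and outside TKO only CDM+MMSET1 replicate 3 (12.27) fell within that range (WT against TKO 0.90, adjusted p = 6.59e-06).

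The fragments without the first part of the protein behaved on these genes as follows. Fragment 526-1240 raised 18 members against TKO and lowered 0 (38.6% of all genes passed; 27 and 0 without H762Y replicate 1, 43.5%), and 526-1365 raised 18 and lowered 0 (37.7%; 23 and 0 without it, 42.6%). Their medians were 0.70 and 0.67, and 10 and 9 members passed with at least 2-fold (7.36% and 7.4% of all genes). INHBE read 10.78, 10.10 and 11.35 in 526-1240 and 11.17, 9.81 and 11.29 in 526-1365, above all TKO arrays (differences 2.73 and 2.74, adjusted p = 0.00711 and 0.00687). CTH read 8.75, 7.69 and 8.72, and 8.44, 7.04 and 8.54 (differences 2.70 and 2.32, adjusted p = 0.00114 and 0.00404). Replicate 2 was the low array of both fragment lines in these genes. Without TKO replicate 3 the counts fell to 11 for 526-1240 and 9 for 526-1365, and the latter fell to 11 without its own replicate 1 and to 9 without its own replicate 3. These comparisons share the TKO arrays with each other and with WT against TKO. Set directly against WT, 526-1365 gave 0 calls among members (1.42% of all genes; 1 member with an unadjusted p under 0.05), with differences from -1.17 to 0.34, the lowest being JDP2 (adjusted p = 0.180).

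In PAR against TKO 8 members rose and 0 fell (22.3% of all genes passed, 12.2% upward), a share near the background, although 35 of 38 differences were above 0 and the median was 0.58 against -0.03 over all genes. With at least 2-fold, 6 members passed (6.33% of all genes). The risen members were JDP2 (3.42), STC2 (2.89), INHBE (2.68), CTH (2.61), VLDLR (2.42), PSAT1 (1.41), XPOT (0.50) and IARS1 (0.48). JDP2 read 9.26, 9.36 and 8.42 in PAR, and of all other arrays only WT replicates 2 and 3 reached this range (SE 0.395, adjusted p = 3.46e-07 against TKO). CTH read 8.87, 8.47 and 7.54 (adjusted p = 0.00246) and STC2 8.36, 8.29 and 7.30, against 5.39, 4.89 and 5.003 in TKO (adjusted p = 3.5e-05). ATF4 read 13.60, 13.38 and 13.02 in PAR and overlapped TKO. ATF3 ranged over 11.43, 10.37 and 8.74 in PAR, the last overlapping TKO (difference 2.45, adjusted p = 0.0575).

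Replicate numbers were taken to pair the arrays of PAR and TKO, since the residuals of same-numbered arrays were correlated (0.38, 0.12 and 0.45). The lowest of these was only just above the limit of 0.1, and the labels do not say what a number shares. With the replicate number as a block, 21 members rose and 0 fell (19.3% of all genes). Without H762Y replicate 1 in the fit, 16 rose and 1 fell (26.7% of all genes). Without TKO replicate 3 the calls of INHBE (2.20, adjusted p = 0.0781), PSAT1 (1.07, adjusted p = 0.0516) and IARS1 (0.37, adjusted p = 0.0525) were lost, and that of INHBE also without PAR replicate 2 (2.48, adjusted p = 0.0510). WT against PAR gave 4 members higher and 0 lower (30.6% of all genes passed; 9 and 0 without H762Y replicate 1, 36.4%), and 0 at 2-fold or more (3.56% of all genes). These were MTHFD2 (0.41), NARS1 (0.54), EPRS1 (0.45) and XPOT (0.40), and the count ranged from 1 to 7 when 1 array was left out: 7 without PAR replicate 1, 1 without PAR replicate 2 or WT replicate 1, and 2 without PAR replicate 3 or WT replicate 3.

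CDM and MMSET1 did not raise the list over TKO. In CDM against TKO 1 member rose (XPOT, 0.36) and 2 fell (EIF4EBP1, -1.02, and PYCR1, -0.43), where 17.2% of all genes passed, and the median was -0.39 against 0.01 over all genes; 1 member passed with at least 2-fold (0.639% of all genes). In MMSET1 against TKO XPOT rose (0.46, adjusted p = 0.0133) and 0 fell (16.9% of all genes), with a median of -0.32 and 0 members at 2-fold or more (0.723% of all genes). The replicate numbers were taken to pair both of these comparisons (lowest correlation of residuals 0.22 in CDM and 0.16 in MMSET1). With the block, 2 rose and 16 fell in CDM (31.1% of all genes), and 2 rose and 14 fell in MMSET1 (25.4%). Without H762Y replicate 1 in the fit, 1 rose and 6 fell in CDM and 2 rose and 6 fell in MMSET1 (21.9% and 21.1% of all genes). The 3 calls in CDM against TKO fell to 0 without TKO replicate 1, CDM replicate 2 or CDM replicate 3. In MMSET1 against TKO the call of XPOT was lost without MMSET1 replicate 1 (0.44, adjusted p = 0.0508), which left 0 calls, and without TKO replicate 3 (0.37, adjusted p = 0.0775), where 4 other members passed. DDIT4, for example, read 10.71, 10.26 and 10.28 in CDM and 10.96, 10.21 and 10.09 in MMSET1, below the 12.35, 11.62 and 11.03 of TKO (differences -1.25 and -1.25, adjusted p = 0.102 and 0.105, and adjusted p = 0.0117 and 0.0122 without H762Y replicate 1).

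The residue changed in H762Y lies in a PHD finger, a zinc-binding fold that reads chromatin. Its 3 arrays parted on this list. ATF3 read 10.71 in replicate 1 and 5.86 and 6.23 in replicates 2 and 3, INHBE 10.99 against 6.16 and 7.04, CTH 7.73 against 3.95 and 4.54, and SESN2 10.67 against 6.69 and 7.66. Replicate 1 was above the mean of the other replicates in 37 of 38 members, as it was in 6175 of 13137 tested genes. It was at least 2-fold above in 25 members (65.8%). Of all tested genes, 8.89% differed at least 2-fold in either direction. The median gap of the members was 1.42, against -0.03 over all genes. Replicate 1 was closer to the WT mean than to the CDM mean in 35 members, the exceptions being JDP2, NUPR1 and VLDLR, while replicate 2 was so in 0 and replicate 3 in 2. JDP2 read 5.92, 5.39 and 5.20, low on all 3 arrays. VLDLR read 4.88 in replicate 1, between its values in WT and CDM, and 2.99 and 3.84 in the others.

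**Figure D4:**
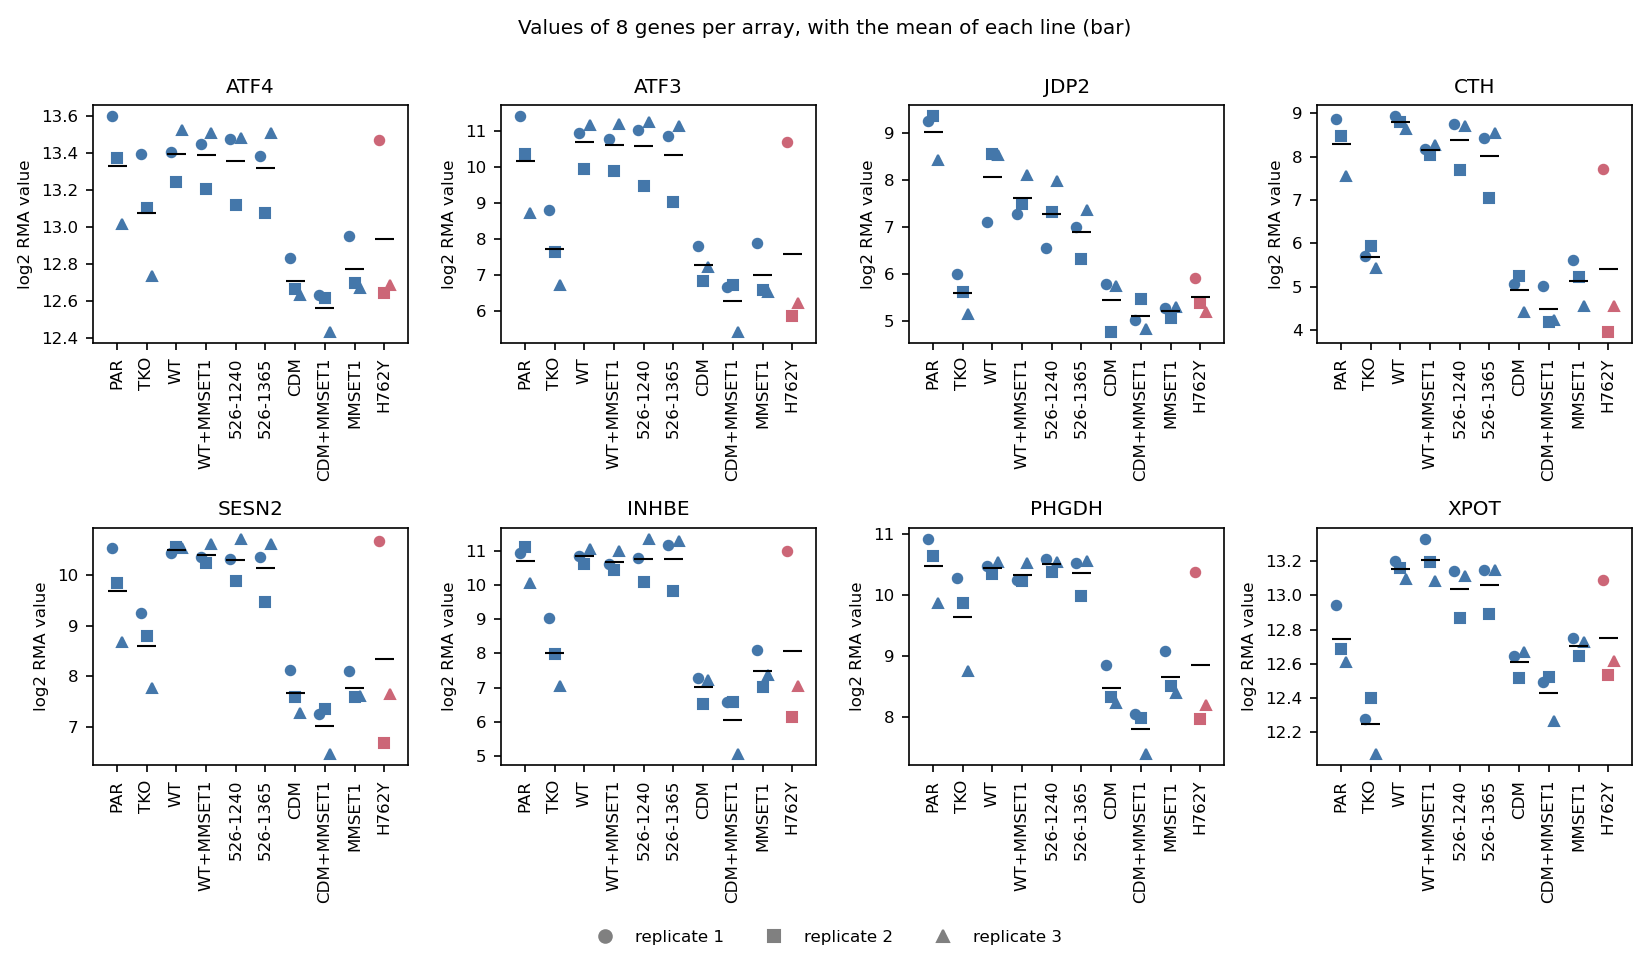
Log2 values (vertical axis, 1 panel per gene) of 8 members on every array by line (horizontal axis), with a shape for each replicate number and a bar at the mean of the line; H762Y is red. H762Y replicate 1 sits beside the WT arrays in ATF4, ATF3, SESN2, INHBE, PHGDH and XPOT, low in JDP2, and between WT and CDM in CTH, while replicates 2 and 3 sit at the level of the CDM and MMSET1 arrays or below it.

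The comparison of H762Y with WT therefore rests on which arrays enter. With all 3, 26 members fell and 0 rose (15.4% of all genes passed), with a median of -0.92 and 15 members at 2-fold or more (3.92% of all genes). Without H762Y replicate 1, 35 fell and 1 rose (39.2% of all genes), with a median of -1.40 and n = 2 for H762Y, whose pair of arrays is assumed to vary like the other lines. ATF4 differed by -0.46 with it (adjusted p = 0.10) and by -0.73 without it (adjusted p = 0.0022), and ATF3 by -3.10 and -4.66. Leaving out H762Y replicate 2 or 3 instead left 4 calls, and leaving out WT replicate 1 or 3 left 7 or 9. H762Y against TKO gave 1 member higher, XPOT (0.50), and 0 lower (15.8% of all genes), with 0 members at 2-fold or more (0.632% of all genes). Without H762Y replicate 1 it gave 1 higher, ALDH18A1 (0.49, adjusted p = 0.0401), and 12 lower (17.4%), among them DDIT4 (-1.90), CHAC1 (-2.19) and PHGDH (-1.56), and without TKO replicate 3 it gave 0.

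The spread between replicate cultures of a line is given for the list as a description, with no test. The residual SD of a member around its line mean was 0.389 in the median, against 0.161 over all tested genes, and 0.291 against 0.149 without H762Y replicate 1. In most lines, PAR and TKO among them, the same array was high or low in most members. PAR replicate 1 was the highest PAR array in 31 members and PAR replicate 3 the lowest in 37, while over all genes these shares were 38.2% and 36%. TKO replicate 1 was the highest TKO array in 32 members and replicate 3 the lowest in 36 (35.3% and 35% of all genes). Replicate 1 was also the highest array of CDM in 32 members, of MMSET1 in 33 and of H762Y in 36. These shares over all genes were 29.1%, 32.7% and 42.6%. Replicate 3 was the lowest array of CDM+MMSET1 in 33 members, and replicate 2 that of 526-1365 in 35 (32.5% and 36.6% of all genes). The members of WT were more divided: the highest array was replicate 1, 2 or 3 in 18, 6 and 14 members, and the lowest in 11, 20 and 7. In 526-1240 the highest was replicate 1 and 3 in 18 members each, and replicate 2 was the lowest in 32. The median member of PAR lay 0.91, 0.38 and -0.11 from its mean over all arrays, that of TKO 0.16, -0.06 and -0.68, and that of WT 0.65, 0.57 and 0.77. PAR replicate 3 was thus below TKO replicate 1 on this measure, whereas all CDM, CDM+MMSET1 and MMSET1 arrays lay between -1.18 and -0.22.

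Genes of the wider pathway that are not members were read from 7 further lists. Of 9 tested amino acid transporters linked to ATF4, 8 rose in WT against CDM and 0 fell (median 0.91; 23.4% of all genes passed), among them the cystine importer SLC7A11 (2.25, adjusted p = 0.00255), SLC43A1 (2.20), SLC3A2, the heavy chain partner of several importers (1.17), and the glutamine importer SLC1A5 (1.03). Of 23 other reported targets of ATF4 or CHOP, 14 rose and 2 fell (median 0.98; the same 23.4% of all genes), with the mitochondrial PEP carboxykinase PCK2 at 2.49, the death receptor TNFRSF10B at 2.25, the eIF2 phosphatase subunit PPP1R15A at 2.00 and the autophagy protein MAP1LC3B at 1.48. HMOX1, heme oxygenase, fell (-1.12, adjusted p = 0.0214). SLC3A2 and PPP1R15A stand in 2 lists each. Leaving H762Y replicate 1 out of the fit, the lists gave 9 and 0, and 16 and 2 (31.5% of all genes). In WT against TKO 5 transporters rose and 0 fell, and 10 of the other targets rose and 4 fell, where 40.8% of all genes passed (6 and 0, and 11 and 4, without H762Y replicate 1, 45.7%). SLC7A11 (1.61), PCK2 (1.67) and TNFRSF10B (2.58) rose, while SLC3A2 (-0.01) and SLC1A5 (-0.13) did not pass.

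The shares of called genes in the remaining lists are read against the 23.4% of all genes called in WT against CDM. Of 7 cytosolic tRNA synthetases that are not members, 0 rose and 2 fell in WT against CDM, FARSA (-0.74, adjusted p = 0.0144) and KARS1 (-0.48, adjusted p = 0.0165), a share of 28.6% that is near the background. Of 15 mitochondrial tRNA synthetases, 0 rose and 6 fell (median -0.44), led by MARS2 (-0.88) and LARS2 (-0.88), or 40%. Of 7 further genes of serine, glycine and one-carbon synthesis, 0 rose and GCSH, a subunit of the glycine cleavage system, fell (-1.43, adjusted p = 0.0309). The 17 genes of eIF2 control split into 3 higher and 5 lower, with PPP1R15B, the constitutive phosphatase subunit, at 0.50 and EIF2S1, the alpha subunit of eIF2, at -0.61. The eIF2 kinase EIF2AK4 (GCN2), which senses uncharged tRNA, did not pass in WT against CDM (0.17, adjusted p = 0.219), rose in PAR against TKO (0.73, adjusted p = 4.73e-06) and in WT against TKO (0.44, adjusted p = 0.00141). EIF2AK3 (PERK) fell in PAR against TKO (-0.45, adjusted p = 0.00138). Of 16 bZIP partners, 5 rose and 0 fell in WT against CDM, among them NFE2L1 (2.00), JUN (1.88) and CEBPA (0.75), a share of 31.2%. In the fit that left out H762Y replicate 1, where 31.5% of all genes passed, the cytosolic synthetases gave 1 higher and 3 lower, the mitochondrial ones 0 and 9, the serine, glycine and one-carbon genes 1 and 2, the eIF2 genes 3 and 6, and the bZIP partners 7 and 0. In PAR against TKO 7 bZIP partners rose and 1 fell (50%, against 22.3% of all genes), with JUN at 3.17 (adjusted p = 0.000166) and CEBPA at 2.03.

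Other probe sets of a member did not always follow the brightest. Adjusted p of single probe sets are from a limma fit over all probe sets tested. EPRS1 rose by 0.68 in WT against TKO on its brightest probe set, while the dimmest of its other probe sets fell (-1.31, adjusted p = 0.000542) and the remaining one differed by -0.29 (adjusted p = 0.319). In WT against CDM all of its probe sets differed upward (0.57 on the brightest, 0.65 on the dimmest and 0.51 on the other), and the brightest alone passed the test (adjusted p = 0.0187, 0.0892 and 0.102). CARS1 differed by -0.63 in WT against TKO on a dimmer probe set (adjusted p = 0.190) against 0.79 on its brightest probe set. The second probe set of JDP2 was dim and differed by 0.28 in WT against TKO and 0.25 in WT against CDM. Of the 4 probe sets of ATF5, the brightest and the next differed by 1.06 and 1.09 in WT against CDM, and the other pair by 0.04 and 0.11 (adjusted p = 0.850 and 0.463). The second probe set of PSAT1 followed the brightest in WT against CDM (1.71) and not in WT against TKO (-0.01, adjusted p = 0.983).

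With the mean of all probe sets of a gene, the WT against CDM calls of TARS1 (0.35, adjusted p = 0.174) and YARS1 (0.44, adjusted p = 0.0556) were lost. ATF3 (1.89), JDP2 (1.44), ATF5 (0.58) and PSPH (0.51) still passed with differences more than 1.5 times smaller than on the brightest probe set, and MTHFD2 (0.88) passed with a larger one. In WT against TKO the calls of PSAT1 (0.62, adjusted p = 0.197), SHMT2 (0.53, adjusted p = 0.0907) and CARS1 (0.07, adjusted p = 0.846) were lost, and ATF3 (1.39), JDP2 (1.38), PSPH (0.41), ALDH1L2 (1.25) and TARS1 (0.52) passed with smaller differences. XPOT, the only member called higher in CDM, MMSET1 and H762Y against TKO with all arrays, lost its call in each of them by this measure (0.19, 0.25 and 0.30, adjusted p = 0.491, 0.338 and 0.240), and also in PAR against TKO (0.43, adjusted p = 0.0605).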

How the data were processed

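RNA of 30 KMS11 cultures was measured on HG-U133 Plus 2.0 arrays. The authors normalized the values by RMA and deposited them as log2 values, per the series design text. Its version and probe definition were not given in the sources used here. The table held 54613 probe sets: 41091 with 1 symbol in the platform annotation, 1801 with several and 11721 with none, the last 2 kinds left out.

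Per gene the probe set with the highest mean was taken and tested where it exceeded 5.013 (the median over the whole table) on 3 or more arrays. A mean per line was fitted by limma 3.58.1 (R 4.3.3), leaving 20 residual degrees of freedom. The Benjamini-Hochberg adjustment ran over 13137 genes in each comparison, and calls were made at 0.05. The pipeline was tested on simulated data. Alternatives covered probe sets, filter, scaling, prior variance, lines fitted, replicate block and left-out arrays; the fit without H762Y replicate 1 was chosen after seeing the data.

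The members and lists were chosen with earlier results of these data known. Per-array values are given for ATF4 and for up to 5 members per role with the largest called difference in PAR or WT against TKO or WT against CDM, and up to 4 called genes are named per further list. EIF2AK4, SLC1A5 and SLC3A2 in WT against TKO, and all single probe sets, were named after their values were seen. Replicate numbers were taken to pair lines where all 3 same-numbered array pairs had residuals correlated above 0.1, which held for PAR, CDM and MMSET1 against TKO and for 526-1365 and WT+MMSET1 against WT. The 3 arrays per line limit the precision.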

Additional observations from a re-analysis of the deposited data

How the results depend on the processing

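The WT to CDM difference of the list kept its direction in all settings tried: the count of called members, 37, was 26 to 36 when 1 array was left out and 23 with a minimum of 2-fold. That of WT+MMSET1 against CDM+MMSET1, 37, was 36 to 37. Counts against TKO were less stable. When 1 array was left out, PAR gave 7 to 11 (8 with all), WT 11 to 25 (23), 526-1240 11 to 21 (18), 526-1365 9 to 21 (18), CDM 0 to 3 (3), MMSET1 0 to 4 (1) and H762Y 0 to 13 (1); against WT, H762Y gave 4 to 36 (26), PAR 1 to 7 (4) and 526-1365 0 to 1 (0). With a minimum of 2-fold, WT gave 13, 526-1240 10, 526-1365 9, CDM 1, MMSET1 0 and H762Y 0 against TKO, H762Y 15 against WT and WT 0 against PAR. With only the lines compared in the fit, CDM gave 9, MMSET1 5 and H762Y 0 against TKO, H762Y 1 against WT and WT 2 against PAR. Without H762Y replicate 1 in the fit, PAR gave 17, CDM 7 and MMSET1 8 against TKO, WT 9 against PAR, and the median spread of members fell from 0.389 to 0.291. MMSET1 against TKO gave 2 under the stricter filter, after centring and after repeated quantile normalization, and WT against PAR gave 2 with the mean of all probe sets.

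With the replicate number as a block and only the lines compared, PAR gave 21, CDM 18, MMSET1 16 and H762Y 0 calls against TKO, and H762Y 2 against WT. The cause was not tested. H762Y was not paired with either line. With the mean of all probe sets, EPRS1 changed sign against TKO in WT (-0.31), 526-1240 (-0.28), 526-1365 (-0.29), CDM (-0.89), H762Y (-0.88) and MMSET1 (-0.87), and in WT against PAR (-0.49), since its other probe sets do not follow the brightest.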
